A study of Mus musculus with 31 samples.

Results

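The membrane sector of the vacuolar proton pump was followed across 4 inbred mouse strains given PF-04287881 or vehicle. Its 9 genes were taken by name, with no threshold on their values: the proteolipid ring genes Atp6v0b and Atp6v0c, the d subunits Atp6v0d1 and Atp6v0d2, the a subunits Atp6v0a1 and Atp6v0a2, the small subunit Atp6v0e, and the accessory proteins Atp6ap1 and Atp6ap2. Of the 9 genes, 8 had a probe set named in the annotation, out of 18147 genes in all, and these 8 were among the 12890 genes bright enough to be tested. Expression of Atp6v0c was not analysed here. Each gene is represented by its brightest probe set, and 5 of the 8 had others.

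The vacuolar proton pump acidifies lysosomes, endosomes and related compartments. Its soluble V1 sector splits ATP and turns a ring of proteolipids in the membrane-bound V0 sector, which carries protons across the membrane past the a subunit. Most V0 genes are expressed in nearly all cells, whereas Atp6v0d2 and the a3 isoform Tcirg1 are best known from osteoclasts and macrophages. In liver the macrophages are Kupffer cells and recruited monocytes, and hepatocytes make up most of the tissue.

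The animals were female mice of the strains WSB/EiJ, SM/J, NZW/LacJ and MA/MyJ, aged 8 to 10 weeks at the start, and each inbred strain stands for 1 genotype. They received 600 mg/kg PF-04287881 or sterile water by gavage daily for 7 days, and RNA came from the left liver lobe 24 hours after the last dose. Each of the 8 groups of strain and treatment held 4 animals with 1 array each, except treated WSB/EiJ with 3, since an animal was lost to a gavage error. The series codes MA/MyJ and NZW/LacJ as strains with Kupffer cell vacuolation and NZW/LacJ as a strain with single cell necrosis; the coding is per strain and not per animal.

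One array, titled treated animal 3 of WSB/EiJ, went against its label. Its score for WSB/EiJ, set so that vehicle arrays of WSB/EiJ average 1 and those of the remaining strains 0, was -0.0070, whereas its fellow WSB/EiJ arrays scored 0.914 to 1.03. Its score for NZW/LacJ was 1.02, and the NZW/LacJ arrays themselves scored 0.853 to 1.01. A score for drug treatment, set at 0 by NZW/LacJ vehicle and at 1 by NZW/LacJ treated arrays, was 0.0452. The NZW/LacJ arrays that set this drug score read -0.0349 to 0.0331 with vehicle and 0.975 to 1.04 when treated. On the same score WSB/EiJ treated animals 1 and 2 scored 0.072 and 0.174, and WSB/EiJ vehicle arrays 0.0465 to 0.442. The drug score thus did not separate treated from vehicle arrays within WSB/EiJ. The array titled treated animal 3 of WSB/EiJ, called the doubted array here, was kept in the group of its label. Results are therefore given with all 31 arrays and without that array. All values are log2 probe-set values, differences are PF-04287881 minus vehicle ± 1 standard error, and a call means a Benjamini-Hochberg adjusted p under 0.05 over all genes tested with limma. The arrays ranged from 6.43 to 6.54 in their median value. In whole liver, fewer cells of a type and less RNA per cell cannot be told apart.

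The membrane sector genes were higher after PF-04287881 by a modest amount. Averaged over the strains, 7 of the 8 members rose and 0 fell, and all 8 rose without the doubted array, counted on the brightest probe set of each. Over all genes tested, 13.3% rose and 8.92% fell with all arrays, and 18.4% rose without it. The median change over the 8 members was 0.25, ranging from 0.12 to 0.45, beside a median of 0.0043 over all genes; without the doubted array the members' median was 0.28.

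**Figure D1:**
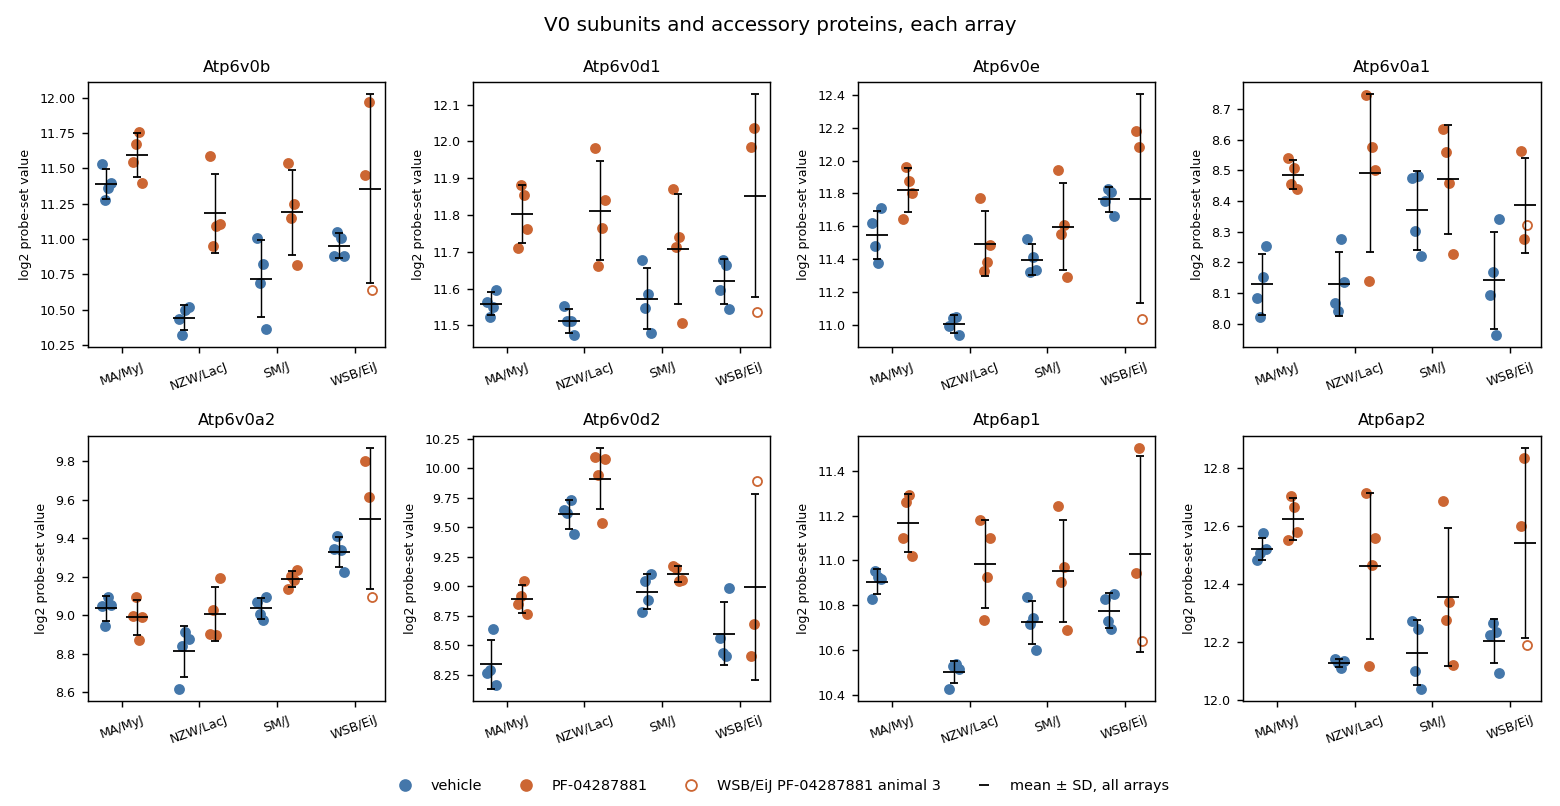
Log2 probe-set values (y axes, each with its own range) of the 8 measured members in every array, by strain (x axis) and treatment. Filled points are arrays, bars are group means ± SD over all arrays of the group, and the open point is the doubted array, treated animal 3 of WSB/EiJ, which lay below all 4 WSB/EiJ vehicle arrays for Atp6v0b, Atp6v0d1, Atp6v0e, Atp6v0a2 and Atp6ap1 and above them for Atp6v0d2.

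Atp6v0b, which encodes a proteolipid of the rotating ring, had the largest average change of the 8. In NZW/LacJ the 4 vehicle arrays read 10.44, 10.32, 10.50 and 10.52, and the 4 treated arrays read 11.59, 10.95, 11.09 and 11.10. All treated values lay above all vehicle values. The change in NZW/LacJ was 0.74 ± 0.19 (adjusted p = 0.0055) and the average over strains was 0.45 ± 0.10 (adjusted p = 0.0011). In WSB/EiJ the vehicle arrays read 10.88, 11.05, 11.01 and 10.88, and the treated ones 11.46, 11.97 and, on the doubted array, 10.64. The first 2 treated arrays were above and the doubted one below every vehicle array. The WSB/EiJ change was 0.40 ± 0.20 (adjusted p = 0.17) with that array and 0.76 ± 0.18 (adjusted p = 0.0018) without it. MA/MyJ had the highest vehicle level, 11.39 ± 0.11 (SD, n = 4), and a change of 0.20 ± 0.19 that did not pass (adjusted p = 0.63). The other 2 probe sets of Atp6v0b gave average changes of 0.39 and 0.20. The brightest and the dimmest Atp6v0b sets carry the x suffix that Affymetrix gives to sets with probes shared by other transcripts. So do the brightest and second brightest sets of Atp6ap2. The remaining Atp6v0b set and the only Atp6ap1 set carry the suffix s. Sharing of probes was not examined here.

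Atp6v0d1 encodes the d subunit of most cells, which joins the ring to the central stalk. Its vehicle means lay within 11.51 and 11.62 in all strains, and these did not differ (adjusted p = 0.72). In NZW/LacJ its treated arrays read 11.98, 11.66, 11.76 and 11.84 against 11.55, 11.51, 11.51 and 11.47 with vehicle. In MA/MyJ they read 11.71, 11.88, 11.86 and 11.76 against 11.56, 11.52, 11.55 and 11.60. The groups did not overlap in either strain. The average change was 0.23 ± 0.04 (adjusted p = 0.00059), and 0.27 ± 0.04 without the doubted array (adjusted p = 6.2e-06). On that array Atp6v0d1 read 11.54, below the lowest WSB/EiJ vehicle array, while the other treated WSB/EiJ arrays read 11.98 and 12.04, above the highest. SM/J had the smallest change, 0.13 ± 0.09 (adjusted p = 0.53).

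Atp6v0d2, the d isoform of osteoclasts and macrophages, followed another order of strains. Its vehicle level was highest in NZW/LacJ, at 9.61 ± 0.12 (SD, n = 4), then 8.95 ± 0.15 in SM/J, 8.60 ± 0.27 in WSB/EiJ and 8.34 ± 0.21 in MA/MyJ. The 4 vehicle means differed (adjusted p = 4.7e-05); the ranges of SM/J and WSB/EiJ overlapped, as did those of WSB/EiJ and MA/MyJ. In MA/MyJ the vehicle arrays read 8.26, 8.29, 8.64 and 8.17 and the treated arrays 8.85, 8.92, 9.04 and 8.76. The treated MA/MyJ values were all above the vehicle values. The MA/MyJ change, 0.55 ± 0.20, did not pass with all arrays (adjusted p = 0.11) and was 0.55 ± 0.13 without the doubted array (adjusted p = 0.0080), the standard error alone being smaller, since all groups share 1 estimate of the spread. In WSB/EiJ the vehicle arrays read 8.57, 8.44, 8.41 and 8.99 and the treated ones 8.41, 8.68 and, on the doubted array, 9.89, above all 4 NZW/LacJ vehicle arrays (9.44 to 9.73) and within the range of the treated ones (9.54 to 10.10). The other members varied in this. For Atp6v0b, Atp6v0d1, Atp6v0e and Atp6ap1 the doubted array lay below all treated NZW/LacJ arrays. Of these, Atp6v0d1 and Atp6v0e lay within the NZW/LacJ vehicle range and Atp6v0b and Atp6ap1 above that range. Atp6v0a1, Atp6v0a2 and Atp6ap2 lay above the NZW/LacJ vehicle range and within the treated one. Without the doubted array the WSB/EiJ change of Atp6v0d2 went from 0.40 ± 0.21 to -0.05 ± 0.16, neither of which passed (adjusted p = 0.20 and 0.84). The average change was 0.35 ± 0.10 (adjusted p = 0.013) with all arrays and 0.24 ± 0.07 (adjusted p = 0.0076) without it.

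The second, dimmer Atp6v0d2 probe set gave larger average changes. In MA/MyJ its vehicle arrays read 4.25, 5.03, 4.72 and 5.19 and its treated arrays 7.58, 6.76, 7.75 and 7.04. In SM/J they read 6.43, 6.57, 6.48 and 6.46 with vehicle and 7.56, 7.57, 7.24 and 7.44 with the drug. Neither strain's groups overlapped, and the MA/MyJ vehicle values lay in the dim part of the array, below the filter threshold of 6.49. It exceeded that threshold in 20 of the 31 arrays; 3 of the 4 SM/J and 3 of the 4 WSB/EiJ vehicle values were also below it. The average change of this probe set was 1.25 ± 0.23 (adjusted p = 0.00032), and 1.05 ± 0.20 without the doubted array (adjusted p = 0.00020). In MA/MyJ it rose by 2.48 ± 0.46 (adjusted p = 0.0018). The changes in SM/J (0.97), NZW/LacJ (0.71) and WSB/EiJ (0.84, or 0.05 without the doubted array) did not pass. The 2 probe sets had the same direction and different sizes in every strain with all arrays, and opposite signs near 0 in WSB/EiJ without the doubted one; no probe sequences were used here to tell which of them follows the transcript.

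**Figure D2:**
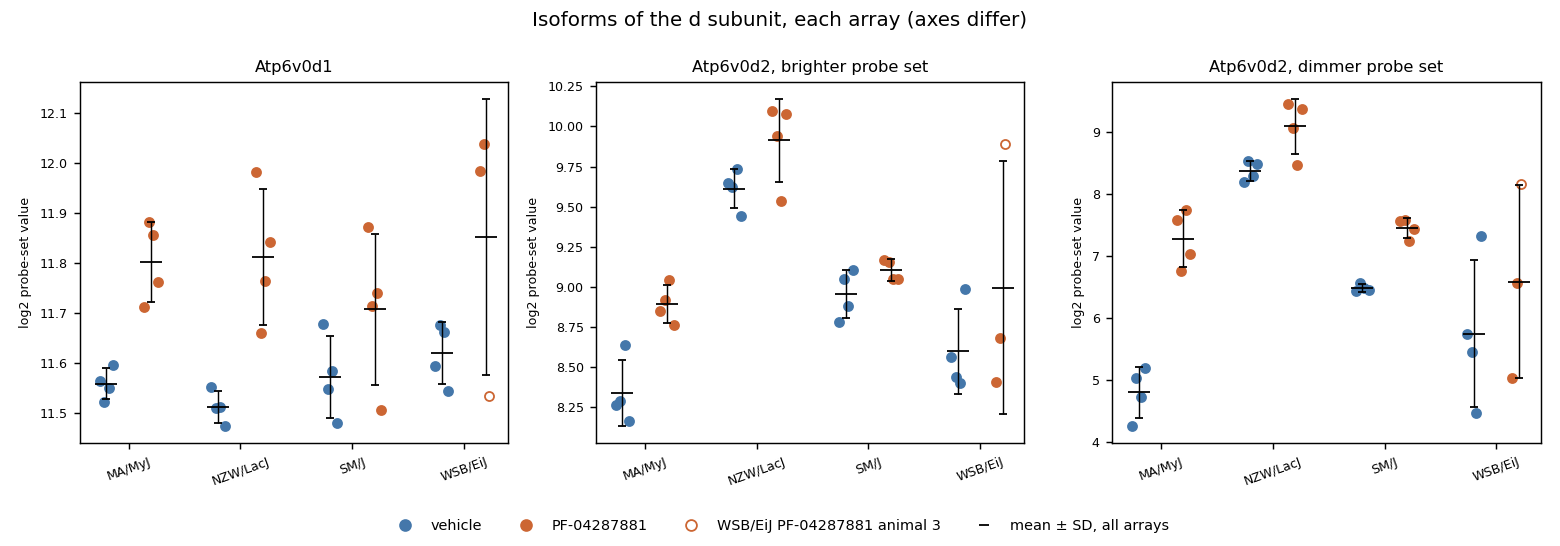
Log2 values (y axes, each with its own range) of Atp6v0d1 and of both Atp6v0d2 probe sets by strain (x axis) and treatment, with group means ± SD. In MA/MyJ the dimmer Atp6v0d2 probe set went from 4.25 to 5.19 with vehicle to 6.76 to 7.75 with the drug, while the brighter one went from 8.17 to 8.64 to 8.76 to 9.04.

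The macrophage and ubiquitous isoforms were compared within each array, by asking whether their log2 difference moved with treatment when treatment labels were permuted within strains. Atp6v0d2 minus Atp6v0d1 moved by 0.12 (exact permutation test, two-sided, p = 0.435, adjusted over 3 pairs 0.653), and by -0.03 without the doubted array (exact p = 0.783). With the dimmer Atp6v0d2 probe set it moved by 1.02 (exact adjusted p = 0.00755), and by 0.79 without that array (exact adjusted p = 0.0498), so the answer depended on the probe set. In MA/MyJ the difference moved by 0.31 with the brighter set (exact p = 0.0857) and by 2.24 with the dimmer one (exact p = 0.0286, the smallest that 4 against 4 arrays allow; 0.171 adjusted over 12 tests). Tcirg1, the a3 subunit, rose by 0.29 ± 0.06 on average (adjusted p = 0.0015). Its difference to Atp6v0a1 moved by 0.03 (exact adjusted p = 0.759), but by 0.33 with the mean of all probe sets of each gene (exact adjusted p = 0.00231). Tcirg1 has no further probe set, so that mean altered the Atp6v0a1 side alone, where some probe sets are dim. Its difference to Atp6v0a2 moved by 0.17 (exact p = 0.0272, adjusted 0.0816). The latter was 0.15 without the doubted array (exact p = 0.0787, adjusted 0.236). It passed without any 1 of 5 other arrays, with adjusted exact p from 0.0121 to 0.0488: MA/MyJ vehicle animal 3, WSB/EiJ vehicle animal 4, WSB/EiJ treated animal 1, NZW/LacJ vehicle animal 1 and SM/J vehicle animal 3.

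Atp6v0a1 and Atp6v0a2 encode forms of the a subunit, past which protons leave the ring. For Atp6v0a1 the MA/MyJ vehicle arrays read 8.08, 8.02, 8.15 and 8.25 and the treated arrays 8.54, 8.45, 8.51 and 8.44. The MA/MyJ groups did not overlap. Its average change was 0.27 ± 0.06 (adjusted p = 0.00091) and it was 0.27 without the doubted array, but its other probe sets did not follow. One of them fell by 0.35 on average (adjusted p = 0.0055), and the remaining 2 gave -0.10 and 0.02. The falling one exceeded the filter threshold in 18 of the 31 arrays and the one at 0.02 in 7. That at -0.10 did so in all 31. When all 4 were averaged the change was -0.04 (adjusted p = 0.51), so the direction for Atp6v0a1 rests on its brightest probe set. Atp6v0a2 gave 0.12 ± 0.05 (adjusted p = 0.098) with all arrays and 0.17 ± 0.04 (adjusted p = 0.0013) without the doubted one. Its other 2 probe sets averaged 0.04 and -0.07, neither of which passed with or without that array, so the direction for Atp6v0a2 also rests on its brightest probe set. In SM/J its vehicle arrays read 9.07, 9.01, 8.98 and 9.09 and its treated arrays 9.14, 9.20, 9.18 and 9.23. The SM/J groups did not overlap, although the change of 0.15 ± 0.10 did not pass (adjusted p = 0.53). In MA/MyJ its change was -0.05 ± 0.10 (adjusted p = 0.87).

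Atp6v0e, a small hydrophobic subunit, read 10.99, 11.04, 11.05 and 10.94 in NZW/LacJ vehicle arrays and 11.77, 11.33, 11.38 and 11.49 in treated ones. The NZW/LacJ groups did not overlap, and the change was 0.49 ± 0.16 (adjusted p = 0.032). In WSB/EiJ its vehicle arrays read 11.76, 11.83, 11.81 and 11.66 and its treated ones 12.18, 12.08 and, on the doubted array, 11.04. The WSB/EiJ change was 0.00 ± 0.18 (adjusted p = 0.99) with that array and 0.37 ± 0.13 (adjusted p = 0.030) without it. The average change, 0.24 ± 0.08 (adjusted p = 0.036), was lost without any 1 of 11 other arrays, at adjusted p of up to 0.0931: MA/MyJ vehicle animals 2 and 3 and treated animals 2 and 3, WSB/EiJ treated animals 1 and 2, NZW/LacJ vehicle animal 4 and treated animal 1, and SM/J vehicle animals 2 and 4 and treated animal 1. Without the doubted array it was 0.33 ± 0.06 (adjusted p = 6.2e-05).

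Atp6ap1 encodes an accessory protein needed for assembly of the V0 sector. Its NZW/LacJ vehicle arrays read 10.43, 10.53, 10.54 and 10.52 and its treated arrays 11.18, 10.74, 10.93 and 11.10, again without overlap. It rose by 0.48 ± 0.13 there (adjusted p = 0.0071) and by 0.31 ± 0.06 on average (adjusted p = 0.0011; 0.36 ± 0.06 without the doubted array, adjusted p = 4e-05). Atp6ap2, also known as the prorenin receptor, read 12.14, 12.13, 12.11 and 12.13 in NZW/LacJ vehicle arrays and 12.71, 12.12, 12.46 and 12.56 in treated ones. Treated animal 2 lay within the vehicle range. Its average change was 0.24 ± 0.06 (adjusted p = 0.0045), and its 3 probe sets gave 0.23 to 0.26. For Atp6v0b, Atp6v0d1, Atp6v0e, Atp6ap1 and Atp6ap2 the highest treated NZW/LacJ value was that of animal 1 and the highest treated SM/J value likewise that of animal 1, while SM/J treated animal 4 gave the lowest treated SM/J value of all 5 genes. Among SM/J vehicle arrays animal 1 was likewise the highest for all 5, and animal 4 the lowest for all but Atp6v0e.

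By strain, the calls were most numerous in NZW/LacJ. There 6 of the 8 members rose with all arrays, against 15.1% of all genes, and 7 without the doubted array, against 18.3%; Atp6v0d2 gave 0.30 ± 0.20 (adjusted p = 0.30). The 6 became 2 without NZW/LacJ treated animal 1 and 3 without NZW/LacJ vehicle animal 2. Atp6v0b and Atp6ap1 passed in NZW/LacJ without any single array. Atp6v0d1 was lost without treated animal 1 of NZW/LacJ (adjusted p = 0.074), and Atp6v0a1 without that animal or vehicle animal 2 (up to 0.0896). Atp6v0e was lost without any 1 vehicle animal or treated animal 1 or 4 of that strain (up to 0.126), and Atp6ap2 without any 1 vehicle animal or treated animal 1, 3 or 4 (up to 0.176). In MA/MyJ 0 of 8 passed in limma, where 3.17% of all genes rose. At an unadjusted limma p under 0.05 were 4 members, against 2354 of 12890 genes in either direction. Without the doubted array 3 passed, Atp6v0a1, Atp6v0d1 and Atp6v0d2, against 5.21%. Without any 1 of 7 other arrays Atp6v0a1 alone passed: MA/MyJ vehicle animal 4, WSB/EiJ vehicle animals 3 and 4 and treated animal 1, NZW/LacJ treated animals 1 and 2, and SM/J treated animal 4. In WSB/EiJ 0 passed in limma, where 6.91% of all genes rose. Unadjusted, 3 members had a limma p under 0.05, against 4132 of 12890 genes in either direction. Without the doubted array 6 passed, all but Atp6v0a1 and Atp6v0d2, against 13.8%. Leaving out WSB/EiJ treated animal 1 instead gave 1 call, Atp6v0d2 (0.69, adjusted p = 0.0377), and leaving out NZW/LacJ treated animal 2 or SM/J treated animal 1 gave Atp6ap2. In SM/J 0 passed in either case, where 1.6% and 2.66% of all genes rose. With all arrays 1 member had an unadjusted limma p under 0.05, against 1866 of 12890 genes in either direction. Without the doubted array 3 did, against 2330 of 12887.

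**Figure D3:**
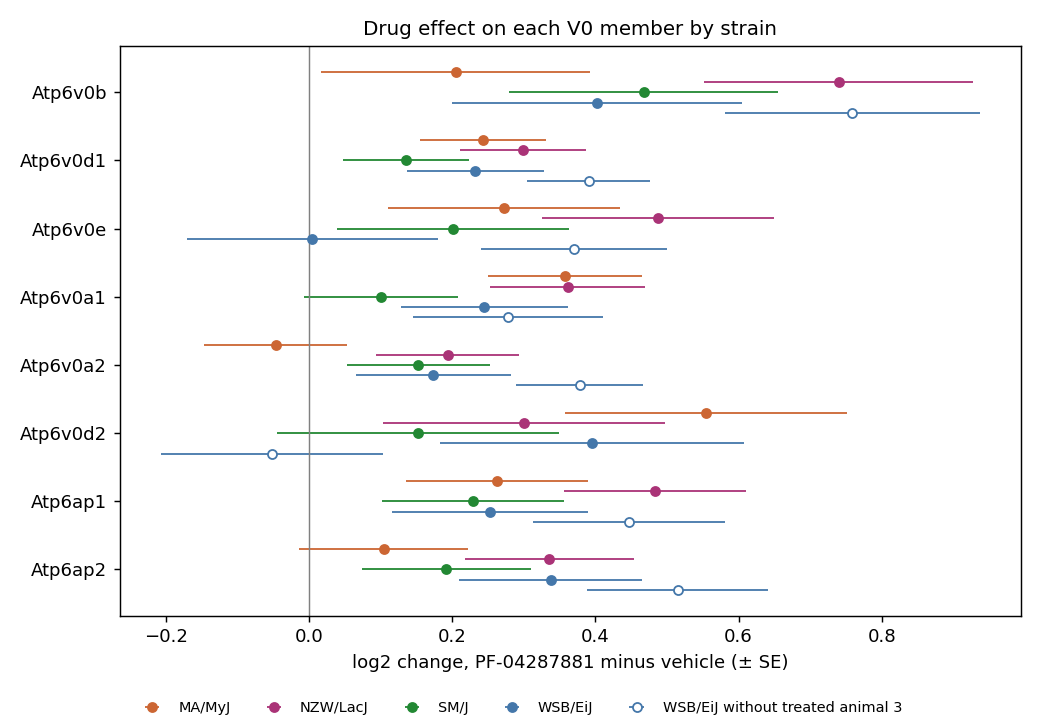
Log2 change, PF-04287881 minus vehicle (x axis, ± 1 SE from limma), of each member (y axis) in each strain. Filled points use all arrays and open points give WSB/EiJ without treated animal 3, which moved Atp6v0b from 0.40 to 0.76, Atp6v0e from 0.00 to 0.37 and Atp6v0d2 from 0.40 to -0.05.

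Treated and vehicle values did not overlap, treated higher, for 4 members in NZW/LacJ, 4 in MA/MyJ, 1 in SM/J, the Atp6v0a2 shown above, and 0 in WSB/EiJ, where leaving out the doubted array made it 6. The shares of all genes that did so were 22%, 10.7%, 6.48%, 6.31% and, without that array, 17.8%. In MA/MyJ the 4 were Atp6v0a1, Atp6v0d1, Atp6v0d2 and Atp6ap1, and in NZW/LacJ they were Atp6v0b, Atp6v0d1, Atp6v0e and Atp6ap1. The median change of the members was 0.35 in NZW/LacJ, 0.25 in MA/MyJ, 0.25 in WSB/EiJ (0.38 without the doubted array) and 0.17 in SM/J, beside medians of all genes from -0.0031 to 0.0208.

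Whether the drug effect differed between strains was tested directly. With all arrays 0 of 8 members passed the strain-by-treatment F test in limma, 0 passed the contrast of the strains coded for vacuolation against the others, and 0 passed the contrast of NZW/LacJ against the other 3. Of all genes, 19.4%, 17% and 15.1% were called in these tests. None of the 8 reached an unadjusted p under 0.05 in any of them, against 4355, 3940 and 3571 of 12890 genes. Without the doubted array 2 members had an unadjusted p under 0.05 in the F test, against 5633 of 12887 genes. Atp6v0a2 passed that test (adjusted p = 0.032), where 32.4% of all genes passed. Its WSB/EiJ change was then 0.38, that in NZW/LacJ 0.19, that in SM/J 0.15 and that in MA/MyJ -0.05. Atp6v0d2 passed the vacuolation contrast, which was larger in MA/MyJ and NZW/LacJ by 0.38 ± 0.13 (adjusted p = 0.039), where 26.3% of all genes passed. Neither call was present with all arrays, except that Atp6v0d2 passed both tests when arrays were weighted by their quality. Neither call was present without WSB/EiJ vehicle animal 4 as well. That array scored next lowest for its strain, at 0.914, close to WSB/EiJ treated animal 1 at 0.931. The contrast for necrosis had 0 calls with and without the doubted array. In vehicle livers 5 of the 8 members differed among strains (Atp6v0a2, Atp6v0b, Atp6v0d2, Atp6v0e and Atp6ap2), a share near the 56.5% of all genes.

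Across the 31 arrays, with each strain's vehicle mean taken off, Atp6v0d1 ran close to most other ubiquitous members. Pearson's r with it was 0.90 for Atp6ap1, 0.89 for Atp6ap2, 0.89 for Atp6v0b and 0.87 for Atp6v0e, 0.77 for Atp6v0a1 and 0.50 for Atp6v0a2. For Atp6v0d2 it was 0.17, or 0.42 without the doubted array. Of 12200 genes compared, those most like Atp6v0d1 were Cln6 (r = 0.94), Atp6v1e1, a V1 subunit (0.92), Cd9 (0.92), Washc2 (0.91) and Cystm1 (0.90). Those most like Atp6v0d2 were Parva (0.85), Manba, lysosomal beta-mannosidase (0.84), Trappc6a (0.82), Sirpa, a receptor of myeloid cells (0.82), and Smpdl3a (0.81). Without the doubted array the order for Atp6v0d2 became Clec7a, a receptor of myeloid cells (0.85), Abhd12 (0.84), Nbdy (0.82), Sirpa (0.81) and Mmp12, the macrophage elastase (0.81). For Atp6v0d1 it became Cln6 (0.94), Atp6v1e1 (0.93), Cystm1 (0.93), Atp6v0e (0.93) and Cstb (0.93). These values describe arrays that share strains and treatment, so no test is attached.

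Promoters were searched for a motif that lysosomal genes are known to share. The E-box CACGTG is the core of the site bound by TFEB and related factors, which are known to control lysosomal genes. RefSeq promoters (GRCm38.p6, 250 bases before to 50 after the start) were at hand for 7 of the 9 members, Atp6v0c among them, in 9 windows. CACGTG, its own reverse complement, was found for 3 of the 7 genes, in 3 of the 9 windows, against 7.15% of 32851 promoter windows. The longer TCACGTG, which contains it, was found on either strand for the same 3, against 3.77%, and the 10-base CLEAR element in its exact form, which contains both, for 0 against 0.326%. The 3 promoters are shown because they hold the motif, with the motif and, where present, the T before or the A after it in capitals. They lie at chr4:117887280-117887579 (minus strand, Atp6v0b), chr8:105566015-105566314 (minus strand, Atp6v0d1) and chr17:26676146-26676445 (plus strand, Atp6v0e). CACGTG starts at -36 and -18 from the start site in Atp6v0b, at -3 in Atp6v0d1 and at 3 in Atp6v0e.
Atp6v0b: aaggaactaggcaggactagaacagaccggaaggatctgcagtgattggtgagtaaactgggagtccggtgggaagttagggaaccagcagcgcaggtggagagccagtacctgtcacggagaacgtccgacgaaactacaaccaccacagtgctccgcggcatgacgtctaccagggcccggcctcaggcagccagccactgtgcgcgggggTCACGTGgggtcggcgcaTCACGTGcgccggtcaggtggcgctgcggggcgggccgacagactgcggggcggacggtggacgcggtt
Atp6v0d1: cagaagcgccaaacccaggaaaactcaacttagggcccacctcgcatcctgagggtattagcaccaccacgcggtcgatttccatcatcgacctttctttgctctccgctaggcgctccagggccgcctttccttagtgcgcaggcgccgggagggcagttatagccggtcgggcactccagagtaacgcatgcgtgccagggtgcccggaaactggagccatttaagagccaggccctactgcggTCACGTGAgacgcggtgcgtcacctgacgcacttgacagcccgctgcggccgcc
Atp6v0e: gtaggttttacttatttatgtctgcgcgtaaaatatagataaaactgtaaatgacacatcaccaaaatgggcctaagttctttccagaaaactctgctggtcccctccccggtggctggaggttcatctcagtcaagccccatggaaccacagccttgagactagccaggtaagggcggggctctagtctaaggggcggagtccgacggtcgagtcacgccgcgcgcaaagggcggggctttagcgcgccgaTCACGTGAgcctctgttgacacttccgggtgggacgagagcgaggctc
These 3 genes changed on average by 0.45, 0.23 and 0.24. Measured members whose windows lack these letters changed by 0.31 (Atp6ap1), 0.27 (Atp6v0a1) and 0.24 (Atp6ap2). A match is a string of letters in a window and was not tested as a binding site.

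Of 13 V1 genes, 9 were tested, 4 rose and 0 fell on average, with a median change of 0.12: Atp6v1e1 (0.35), Atp6v1d (0.32), Atp6v1g1 (0.26) and Atp6v1f (0.23). Without the doubted array 6 rose. Over all genes tested, 13.3% rose and 8.92% fell with all arrays, and 18.4% rose without the doubted one. Of 13 genes for pump assembly and regulation 5 rose and 0 fell (median 0.05), led by Dmxl2 and Wdr7, the rabconnectins that bind the pump (0.58 and 0.32), and Clcn7 and Ostm1, which form the lysosomal chloride transporter (0.31 and 0.20). Of 17 genes for the TFEB family and lysosomal nutrient sensing 7 rose and 1 fell (median 0.13), with Rragd (1.10), Fnip2 (0.69), Fnip1 (0.54) and Rragc (0.35), which act on the lysosome surface in amino acid sensing, the largest.

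Markers of liver macrophages also rose on average, and their part in the results was not tested. Over all genes tested, 13.3% rose and 8.92% fell on average. The mean level of the Kupffer list ran from 8.53 to 8.82 in MA/MyJ vehicle arrays and 9.13 to 10.11 in treated ones, from 9.02 to 9.55 and 8.94 to 10.72 in NZW/LacJ, from 9.13 to 9.57 and 9.11 to 10.01 in SM/J, and from 7.62 to 8.29 and 8.96 to 9.35 in WSB/EiJ. The ranges overlapped in NZW/LacJ and SM/J. Of 12 Kupffer cell markers 10 rose (median 0.81), and of 11 tested markers of recruited and lipid-associated macrophages 8 rose (median 1.07), among them Cd68 (1.99) and Gpnmb (1.96), with Cd9 (1.10) also in the latter list. The mean level of the recruited macrophage list was from 7.43 to 7.60 in MA/MyJ vehicle arrays and 8.70 to 9.51 in treated ones, from 7.57 to 7.69 and 8.12 to 9.38 in NZW/LacJ, from 7.44 to 7.56 and 7.91 to 8.23 in SM/J, and from 7.32 to 7.45 and 7.63 to 8.41 in WSB/EiJ. For that list, treated and vehicle ranges were apart in all 4 strains. By strain, Kupffer marker calls were 8 for WSB/EiJ, 7 for MA/MyJ, 2 for NZW/LacJ and 0 for SM/J (medians 1.31, 1.15, 0.69 and 0.25). The members had 0, 0, 6 and 0 calls in these strains (medians 0.25, 0.25, 0.35 and 0.17). Of all genes 6.91%, 3.17%, 15.1% and 1.6% rose there. Without the doubted array the markers had 9, 8, 5 and 0 calls and the members 6, 3, 7 and 0. The shares of all genes that rose were then 13.8%, 5.21%, 18.3% and 2.66%. The recruited macrophage list had 7 calls in NZW/LacJ, 6 in MA/MyJ, 3 in WSB/EiJ and 1 in SM/J (medians 1.46, 0.90, 0.51 and 0.46). Of 8 tested hepatocyte markers 1 rose and 0 fell (median -0.02), at a mean level of 14.19 to 14.32 on all arrays, near the top of the measured scale, where changes can be compressed; 6 of 8 sinusoidal endothelial markers fell (median -0.44).

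**Figure D4:**
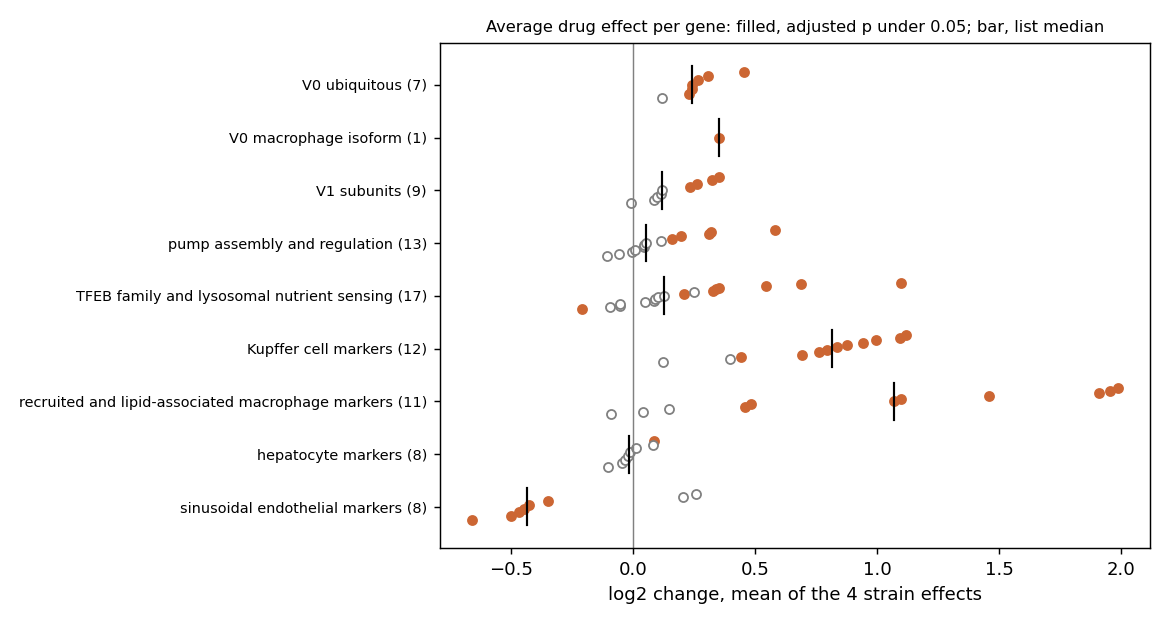
Average log2 change over the 4 strains (x axis) of every tested gene in 9 lists (y axis, number of genes in brackets), filled where the adjusted p was under 0.05, with the list median as a bar. The ubiquitous V0 members lie between 0.12 and 0.45, between the hepatocyte markers (median -0.02) and the macrophage markers (medians 0.81 and 1.07).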

How the data were processed

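Per the submitters' processing notes, the deposited log2 values per probe set were made by the authors with Affymetrix Power Tools and RMA, which corrects background, normalises arrays by quantiles and summarises probes; versions are not given in the sources used here. RMA fixes the overall level of each array, so changes are relative to other genes. Of 44721 probe sets 34728 had 1 gene symbol, 872 several and 9121 none, and 34525 were matched by Entrez number to the GRCm38.p6 table. Genes were represented by the probe set with the highest mean and kept when above 6.49, the median of all values, in at least 3 arrays. limma 3.58.1 in R 4.3.3 fitted 1 mean to each of 8 groups over 31 arrays (23 residual and 3.17 prior degrees of freedom), with contrasts as in the report and two-sided tests. Isoform differences were tested by exact permutation within strains. The number of arrays limits precision, and the labels do not say whether animals were handled in batches.

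All 9 members were named. Of other lists up to 4 called genes with the largest average change were named, and the 5 genes most like Atp6v0d1 and Atp6v0d2. Members and lists were chosen with earlier results of these data known. Alternatives were array weights, a replicate block, mean probe sets, other filters, median centring, trend and robust eBayes, single strains and leaving out arrays. The fits were tested on simulated data. Equal animal numbers were checked for pairing by correlating their deviations, without a test. The correlations ran from -0.52, for the pair with the doubted array, to 0.41, and in SM/J from -0.11 to 0.23. These values do not settle whether the numbers pair the samples.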

Additional observations from a re-analysis of the deposited data

Results flagged for a closer look

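Tests of the difference between strains passed for some members under single choices of array and probe set. For the brightest probe sets, in limma without array weights, they passed without the doubted array, titled treated animal 3 of WSB/EiJ: Atp6v0a2 in the strain-by-treatment F test (limma adjusted p = 0.0321) and Atp6v0d2 in the vacuolation contrast (adjusted p = 0.0391). With array weights and all arrays, Atp6v0d2 passed both tests and Atp6v0a2 neither. Without the doubted array and WSB/EiJ vehicle animal 4 together, 0 members passed either. The dimmer Atp6v0d2 probe set passed both without the doubted array alone, at 0.0474 for the vacuolation contrast and 0.0101 for the F test.

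One other probe set of Atp6v0a2, the dimmest of its 3, passed with all arrays, at 0.0214 for the vacuolation contrast and 0.0384 for the F test, and without that array at 0.00801 and 0.0184. Its vacuolation contrast was -0.36 with all arrays and -0.40 without that array, lower in MA/MyJ and NZW/LacJ, against -0.09 and -0.19 for the brightest Atp6v0a2 probe set.

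The other 2 Atp6v0b probe sets passed only without that array: the brighter one in the F test (0.0484), and the dimmer one in the vacuolation contrast (-0.23, adjusted p = 0.0344) and the F test (0.0279). Of 56 sets of values, each from a group of 4 arrays, examined for a single far value, 0 had one. Treated WSB/EiJ, with 3 arrays including the doubted one, was not among the groups examined.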

How the results depend on the processing

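The members' average calls stayed between 6 and 8 of 8 under every alternative, and between 6 and 8 without single arrays. Without single arrays the calls ran from 0 to 1 in the F test and in the vacuolation contrast, 0 to 0 for necrosis, 4 to 6 among vehicle strains, 0 to 3 in MA/MyJ, 0 to 6 in WSB/EiJ, 2 to 7 in NZW/LacJ and 0 to 0 in SM/J. Array weights gave 1 in the F test and 1 in the vacuolation contrast, both Atp6v0d2, and 5 each in MA/MyJ, WSB/EiJ and SM/J; they raised calls over all genes too. Means of all probe sets gave 1 in MA/MyJ and 1 in WSB/EiJ, and turned Atp6v0a1 to -0.0428 on average and -0.1711 in NZW/LacJ. Fitting a strain alone gave 2 in MA/MyJ. Leaving out WSB/EiJ treated animal 3 and vehicle animal 4 together was a choice made after seeing the data. Calls were then 3 in MA/MyJ and 5 in WSB/EiJ, and 0 in the F test and the vacuolation contrast. On the score for WSB/EiJ that vehicle array (0.914) lay close to treated animal 1 (0.931). The causes were not tested.

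With the replicate block, Atp6v0e missed on average (0.233, adjusted p = 0.0656) and Tcirg1 minus Atp6v0a2 passed (0.2103, exact adjusted p = 0.0203). With the block and without the doubted array, also chosen after seeing the data, calls were 1 in the F test (Atp6v0b, not Atp6v0a2), 0 in the vacuolation contrast, 3 in MA/MyJ, 5 in WSB/EiJ and 1 in SM/J. Whether the animal numbers pair the samples was not tested.

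For the isoform differences, means of probe sets gave 0.573 for d2 minus d1, 0.334 for Tcirg1 minus Atp6v0a1 and 0.261 for Tcirg1 minus Atp6v0a2, all passing. The dimmer Atp6v0d2 probe set, added after seeing the data, gave 1.02, and 0.786 without the doubted array. Leaving out the doubted array and WSB/EiJ vehicle animal 4 together gave 0.184 for Tcirg1 minus Atp6v0a2. Leaving out single arrays gave -0.0285 to 0.2126, -0.0104 to 0.051 and 0.1427 to 0.2103 for the 3 differences. Low signal limits the dimmer Atp6v0d2 probe set in its MA/MyJ, SM/J, WSB/EiJ and average changes. That probe set exceeded the filter threshold in 20 of 31 arrays. The Atp6v0a1 probe sets with average changes of -0.35 and 0.02 did so in 18 and 7.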
